A study of Mus musculus with 22 samples.

Results

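The enzymes that keep peroxides, superoxide and oxidised thiols in check in choroid plexus (ChP) are described here across all samples of the study. They are the 68 protein-coding genes whose symbols name a glutathione peroxidase (*Gpx*), a glutathione S-transferase (*Gst*), an enzyme of glutathione synthesis or recycling (*Gclc*, *Gclm*, *Gss*, *Gsr*), a thioredoxin or thioredoxin-related protein (*Txn*), a peroxiredoxin (*Prdx*), sulfiredoxin (*Srxn1*), a superoxide dismutase (*Sod1*, *Sod2*, *Sod3*) or a glutaredoxin (*Glrx*). They were taken by symbol alone, out of 20897 protein-coding genes and 33984 genes in all. All 68 have a transcript in the files and 66 have at least 1 count. Of these, 56 had enough counts to be tested in each of the 5 comparisons between groups. *Gpx6* and *Gstm6* were tested in some, and 10 members with at most 4 counts in any pool in none (*Gpx2*, *Gpx5*, *Gsta1*, *Gsta2*, *Gstm3*, *Gstp2*, *Gstp3*, *Gstt4*, *Txndc2* and *Txndc8*).

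RNA was sequenced from 14 pools of ChP of mice, 2 pools (A and B) for each of 7 groups. In the conditional model, *Otx2* lox/lox mice of strain S129, 3 months old, received an intracerebroventricular injection of Cre-Tat, a cell-penetrating form of Cre recombinase, or of vehicle, and the ChP of the lateral ventricles (LV) and of the fourth ventricle (4V) was taken apart 15 days later. The vehicle pools carry the floxed alleles as well, and the injection reaches the ChP through the ventricles, with no promoter that limits Cre to 1 cell type. In the constitutive model, 4V ChP came from B6D2 mice labelled wildtype (WT), Otx2(+/-), a heterozygous knockout in every cell that carries GFP in place of 1 *Otx2* allele, and Otx2(+/AA), an allele that the methods of the study do not describe. The age of 3 months is given for WT and Otx2(+/-) mice. Both ventricles came from the injected mice, but no source used here says that pools of the same letter held the same mice, or that pools A and B of the constitutive model held different mice, so p-values measure the spread between pools, which may be technical there.

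Hydrogen peroxide and lipid peroxides are removed by peroxidases of the glutathione and thioredoxin systems. Glutathione is made by glutamate-cysteine ligase and glutathione synthetase, spent by glutathione peroxidases, transferases and glutaredoxins, and recycled by glutathione reductase, whereas thioredoxin and its reductases return electrons to peroxiredoxins. The ChP epithelium forms the blood-CSF barrier, is rich in mitochondria, carries out detoxification at this barrier, and secretes proteins into the CSF.

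Levels are CPM, counts relative to a library of 1000000 reads, scaled over all 14 pools by the TMM factors of edgeR. Adjusted p-values are Benjamini-Hochberg values of edgeR's quasi-likelihood test over all genes tested in a comparison, with 0.05 as the threshold, and are written below as edgeR adjusted p. Total counts were 22750019 to 50088408 per pool. The summed level of 10 ChP epithelium markers was 87683 to 231166 CPM and led every other marker list in every pool. It was 184552 to 231166 CPM in the vehicle pools, 123885 and 165173 CPM with the Cre-Tat label in LV ChP, 98804 and 87683 CPM with that label in 4V ChP, 199374 and 188399 CPM in WT, 125156 and 132804 CPM in the pools labelled Otx2(+/-) and 154211 and 157563 CPM in those labelled Otx2(+/AA). Most of this sum was *Ttr*, at 147756 and 139043 CPM in WT and 76376 and 89850 CPM with the Otx2(+/-) label. *Enpp2* was at 43543 and 42257 CPM and at 41931 and 37101 CPM there. The sum thus follows mainly *Ttr* and is no measure of the share of epithelial cells. The erythrocyte markers, which would bring in blood peroxidases and peroxiredoxins, summed to 9.17 CPM at most. *Otx2* itself, counted over its whole transcript, went against the knockdown labels, with 385 to 469 CPM in vehicle pools and 1024 to 1235 CPM in pools labelled Cre-Tat, and with 361 and 303 CPM in WT against 1027 and 885 CPM in pools labelled Otx2(+/-). The files hold 1 count per transcript, so the deleted part of *Otx2* could not be measured apart. The study checked the knockdown on reads of exon 2 alone and screened Cre-Tat tissue for lowered *Otx2* by qPCR before pooling, and the counts used here hold neither measure. Whether labels were exchanged was not tested, and groups are called by their labels throughout.

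Antioxidant enzymes were abundant in ChP under vehicle. On a scale of CPM per kilobase of the counted transcript, averaged over the 4 vehicle pools, 19 of the 68 members stood above the 90th percentile of all protein-coding genes and 35 above the 75th. *Gsta4*, which conjugates reactive aldehydes from lipid peroxidation to glutathione, was first, with a mean of 226 CPM per kb and a range of 190 to 251 over the 4 pools. *Prdx5*, a peroxiredoxin of mitochondria, peroxisomes and cytosol, followed with 205 CPM per kb (171 to 226). *Gpx8*, a peroxidase of the endoplasmic reticulum membrane, was at 192 CPM per kb (128 to 235). The ranges of these members overlapped, so their order is not resolved. Every vehicle pool held more of each than of any other member. *Txndc15*, a membrane protein needed at cilia, was next with 76.98 CPM per kb (60.8 to 86.7). Cytosolic *Gpx1* had 64.3 CPM per kb (55.7 to 73.4), the mu-class transferase *Gstm5* 60.9 (49.8 to 71.6) and *Prdx6*, which reduces phospholipid peroxides, 56.0 (52.8 to 58.8). *Sod3*, the extracellular superoxide dismutase, had 50.2 CPM per kb (33.0 to 74.2), the cytosolic *Sod1* 47.6 (37.9 to 54.0) and *Prdx2* 38.7 (33.8 to 42.8). Neighbours from *Txndc15* to *Prdx2* overlapped in their ranges. The level of *Prdx5* is uncertain, since 32.4% of the bases of its transcript lie in exons of *Trmt112* on the other strand, and the strand used in counting is not given in the sources used here. Exons of *Junb* and *Rnaseh2a* cover 21.6% of the counted *Prdx2* transcript and those of 4933431E20Rik 14.1% of *Gstm5*, again on the other strand. For 17 members, over 10% of the 50-base windows of the counted transcript, the length of a read, also occur in other genes. Among these are *Gpx4* (68.9%), *Prdx2* (23.8%) and *Sod1* (23.1%), so the places of such members are uncertain.

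**Figure D1:**
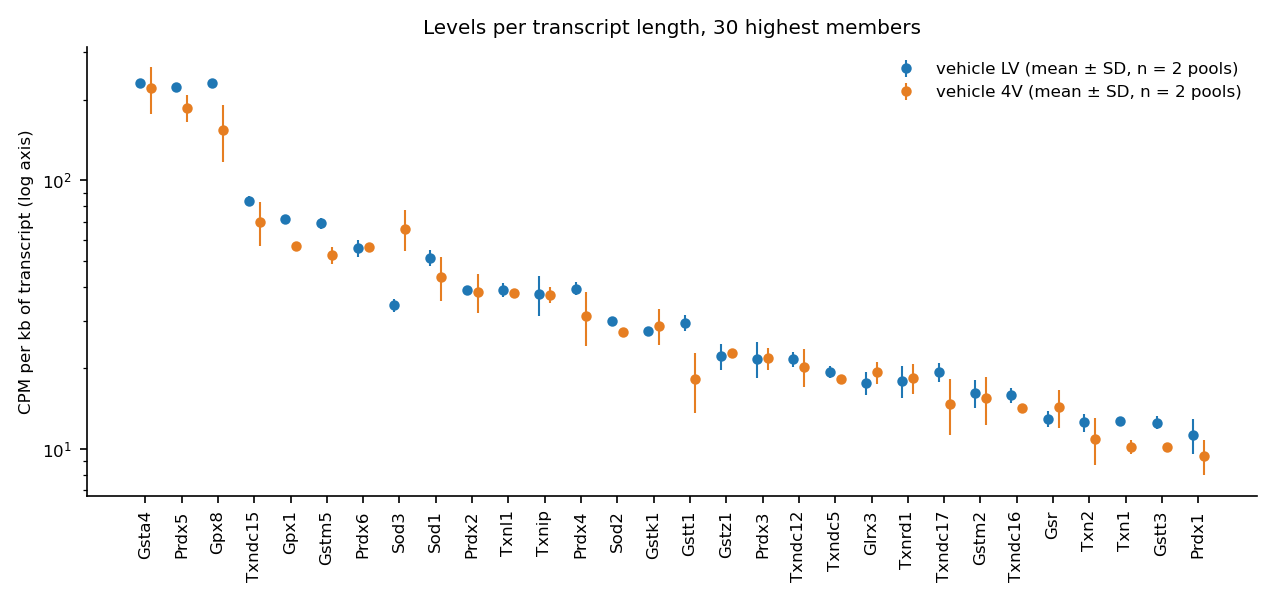
Levels of the 30 highest members in the vehicle pools, as CPM per kb of the counted transcript on a log axis. Points are means of 2 pools of LV or 4V ChP and bars are SD. *Gsta4*, *Prdx5* and *Gpx8* stand above the others in both ventricles, and *Sod3* is higher in 4V than in LV ChP.

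*Gpx3* changed far more than any other member in the knockdown comparisons. It encodes the secreted, selenium-dependent glutathione peroxidase of plasma and other extracellular fluids (ENSMUSG00000018339, chromosome 11, 54902453 to 54910377 on the plus strand of mm10). In LV ChP, it was at 6.54 and 20.3 CPM in the vehicle pools and 267 and 402 CPM in the pools labelled Cre-Tat. In 4V ChP, these values were 9.85 and 14.2 CPM against 572 and 847 CPM. Both pools labelled Cre-Tat were above both vehicle pools of the same ventricle, and the LV vehicle pools lay on either side of both 4V vehicle pools. The rise was 24.9-fold in LV ChP (log2 fold change 4.64, SE 0.39, edgeR adjusted p = 1.6e-05) and 59.5-fold in 4V ChP (log2 fold change 5.90, SE 0.23, edgeR adjusted p = 1.3e-11). The LV value rests on a low and a higher vehicle pool, and was 16.4-fold without vehicle pool A and 51.0-fold without vehicle pool B.

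In the constitutive model, WT pools already held 35.1 and 26.3 CPM of *Gpx3*. The pools labelled Otx2(+/-) held 157 and 185 CPM, and those labelled Otx2(+/AA) 35.6 and 50.9 CPM. Both mutant labels thus had pools above those of WT, by a small margin for Otx2(+/AA). *Gpx3* rose 5.58-fold in the pools labelled Otx2(+/-) (log2 fold change 2.48, SE 0.16, edgeR adjusted p = 0.000387). The difference for Otx2(+/AA) did not pass the threshold (log2 fold change 0.48, SE 0.18, edgeR adjusted p = 0.399). Relative to the other members per length, *Gpx3* was number 32 in LV and number 36 in 4V ChP under vehicle, number 3 and number 1 in the pools labelled Cre-Tat, number 19 in WT, number 4 in the pools labelled Otx2(+/-) and number 16 in those labelled Otx2(+/AA).

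Whether the response of *Gpx3* differed between ventricles or models was tested as an interaction. Between ventricles, the LV response minus the 4V response was -1.25 on the log2 scale (SE 0.52), and no member passed the threshold, where 0.00642% of all genes tested did by edgeR. By unadjusted p, 4 members were under 0.05 (*Glrx*, *Gpx3*, *Gpx6* and *Gstm1*), and DESeq2 called none. Without the filter on low counts *Gpx3* passed (-1.26, edgeR adjusted p = 0.00033), and when single pools were left out its difference ran from -0.22 without LV vehicle pool B to -1.86 without LV vehicle pool A, with no call. Between models in 4V ChP, the response to the Cre-Tat label minus that to the Otx2(+/-) label was 3.40 on the log2 scale (SE 0.31, edgeR adjusted p = 0.000206), and *Gpx3* was the only member past the threshold, which 1.64% of all genes tested passed, 0.783% with a positive and 0.861% with a negative difference. Strain, library year and injection differ together with the model, so they cannot be told apart from it.

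**Figure D2:**
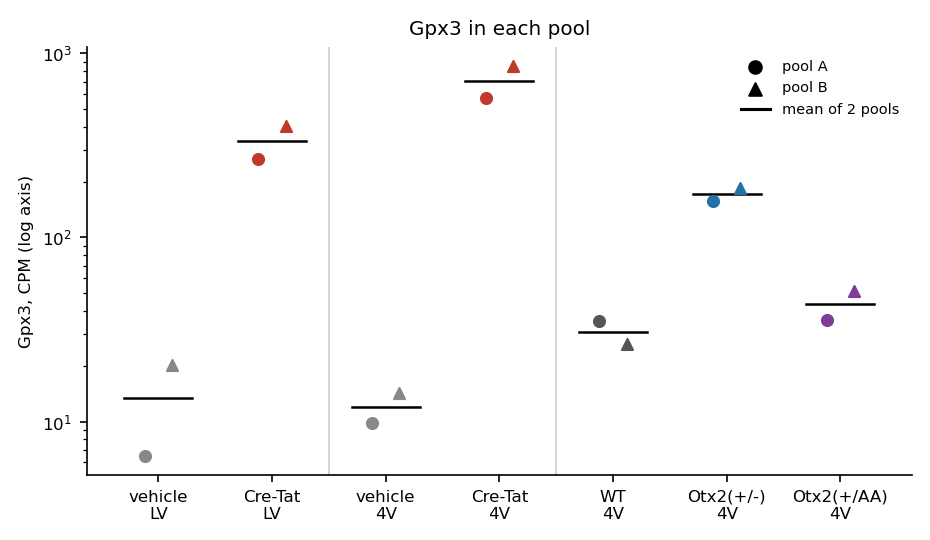
*Gpx3* in each of the 14 pools, in CPM on a log axis, with pool A as a circle, pool B as a triangle and the mean as a line. The pools labelled Cre-Tat lie between 267 and 847 CPM and the vehicle pools between 6.54 and 20.3 CPM, with the pools of the constitutive model between these extremes.

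None of the 50-base windows of its counted transcript occurs in a transcript of another gene, and no exon of another gene overlaps it. All 3 transcripts of *Gpx3* in the files moved in the same direction, but they can hold the same reads and are no independent measures. The main one had 137 and 409 counts in the LV vehicle pools and 6642 and 8757 counts with the Cre-Tat label.

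The start regions of *Gpx3* and *Txnip*, the members past the threshold in both ventricles, are given below with that of *Gclm*, the modifier subunit of glutamate-cysteine ligase and a known target of the oxidative stress factor NRF2. They are RefSeq windows of 250 bases before to 50 bases after the start site on GRCm38.p6, at chr11:54902604-54902903, chr3:96557707-96558006 and chr3:122245307-122245606, all on the plus strand. Capitals mark the core of the antioxidant response element, TGACNNNGC, read on either strand.
Gpx3: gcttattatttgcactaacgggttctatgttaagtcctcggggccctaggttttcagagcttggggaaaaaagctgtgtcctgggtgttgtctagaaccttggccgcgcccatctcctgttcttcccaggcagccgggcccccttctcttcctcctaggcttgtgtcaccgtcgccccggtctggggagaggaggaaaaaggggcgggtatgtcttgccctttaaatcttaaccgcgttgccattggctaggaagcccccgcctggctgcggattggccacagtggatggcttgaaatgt
Txnip: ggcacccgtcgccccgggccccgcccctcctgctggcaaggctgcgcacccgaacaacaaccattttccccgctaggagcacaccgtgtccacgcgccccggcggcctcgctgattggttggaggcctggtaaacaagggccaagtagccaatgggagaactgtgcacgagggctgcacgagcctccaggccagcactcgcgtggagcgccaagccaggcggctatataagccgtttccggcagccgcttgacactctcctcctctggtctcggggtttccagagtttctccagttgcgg
Gclm: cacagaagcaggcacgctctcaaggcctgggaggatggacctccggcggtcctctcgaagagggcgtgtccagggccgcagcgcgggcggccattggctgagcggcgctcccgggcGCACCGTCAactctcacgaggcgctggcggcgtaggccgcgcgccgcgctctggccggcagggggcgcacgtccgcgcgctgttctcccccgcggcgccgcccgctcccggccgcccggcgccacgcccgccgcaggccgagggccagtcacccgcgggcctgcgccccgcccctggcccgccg
In the *Gclm* window the element lies on the minus strand, with its first base 134 bases before the start site. The *Gpx3* and *Txnip* windows hold neither this core nor the OTX2 homeodomain letters TAATCC nor the E-box CACGTG, which says only that these letters are not in these windows. Of all 32851 mouse windows of the same length, 12.39% hold the antioxidant response element core on either strand, 7.062% TAATCC and 7.15% CACGTG. Windows were found for 59 member genes. Of their 81 windows, 13.58%, 9.877% and 6.173% hold these letters, and the antioxidant core is present for 11 genes, among them *Gclm*, *Srxn1*, *Txnrd1*, *Prdx1* and *Sod1*.

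Most other members did not pass the threshold, and those that did passed in at most 2 of these comparisons. In LV ChP, 2 of 57 tested members rose and none fell, where 3.24% of all genes tested were called, 2.21% as higher and 1.03% as lower. Without LV vehicle pool A 1 member passed, and without LV Cre-Tat pool B 4. In 4V ChP, 6 of 56 rose and 1 fell, against 10.7% of all genes, 5.7% higher and 4.98% lower. In the pools labelled Otx2(+/-), 1 of 57 rose and 2 fell, against 3.53% of all genes, 1.78% higher and 1.75% lower, and in those labelled Otx2(+/AA) none of 57 passed by edgeR, against 0.345%. For Otx2(+/AA), 3 members had an unadjusted p under 0.05 (*Gpx3*, *Gpx8* and *Txndc5*), and DESeq2 called none. The median log2 fold change of the tested members was 0.09, 0.03, -0.09 and 0.03 in these comparisons, beside a median near 0 for all genes. Absolute log2 fold changes under 0.5 were found for 50, 47, 48 and 55 members in the same order. Pools of the groups did not overlap for 28, 32, 33 and 24 members, and for 42.5%, 50.4%, 49.2% and 38.1% of all genes. These shares apply wherever pools of these comparisons are called apart below. *Gpx3* passed in 3 comparisons, *Gpx8* and *Txnip* in 2, *Glrx*, *Gstm1*, *Gstt1*, *Prdx6* and *Sod1* in 1, and the other 60 members in none. Both mutant labels were compared with the same WT pools.

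**Figure D3:**
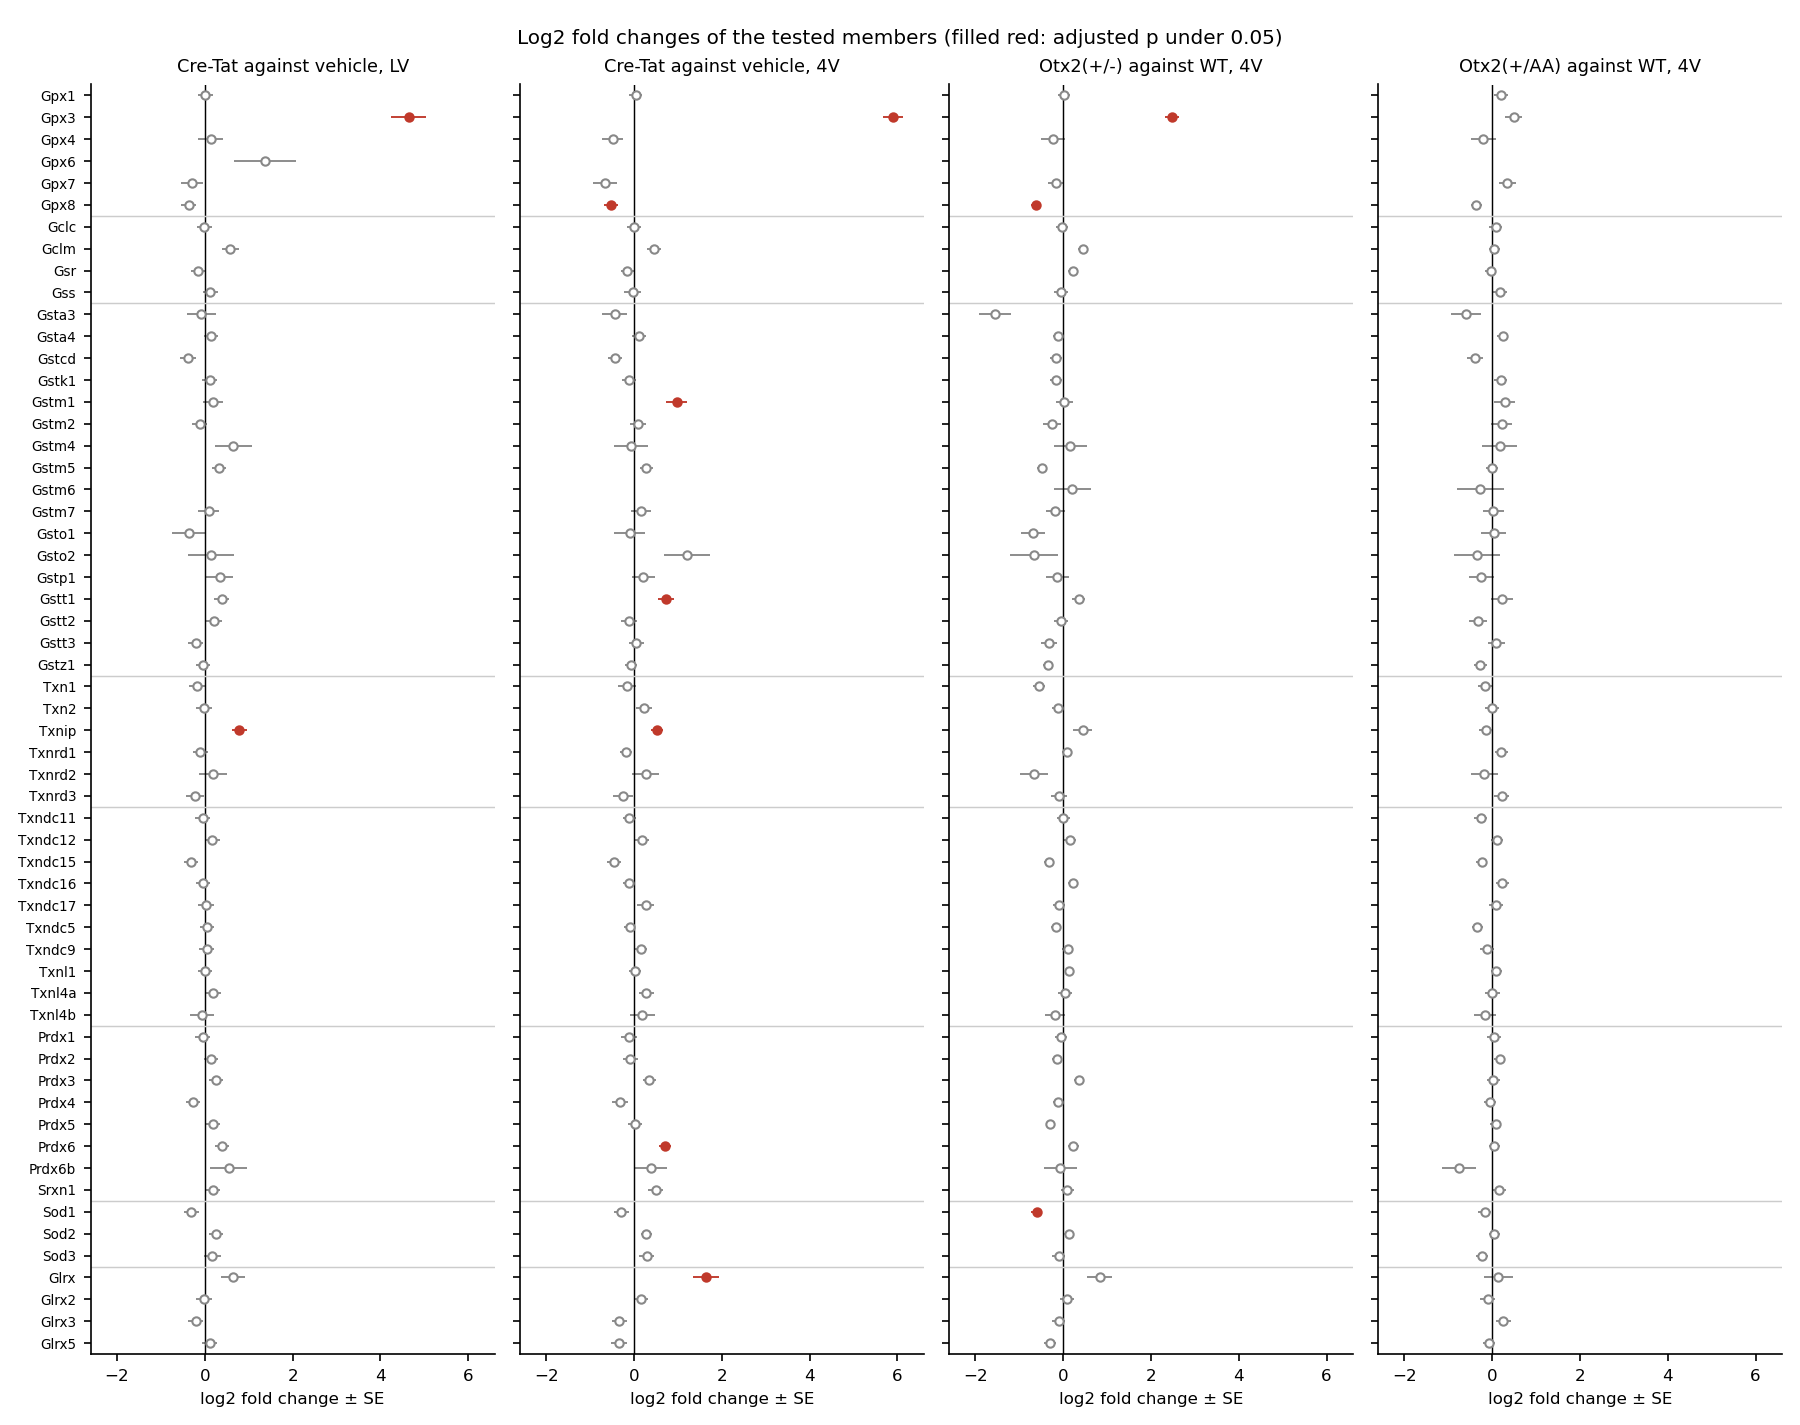
Log2 fold changes of the tested members in the comparisons with a knockdown or mutant label, grouped by role from glutathione peroxidases at the top to glutaredoxins at the bottom. Points are estimates of edgeR, bars are SE, and filled red points have an adjusted p under 0.05. *Gpx3* stands far to the right at 4.64, 5.90 and 2.48, while most members lie within 0.5 of 0.

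Markers of some other cell types moved with the labels. No endothelium, mural or oligodendrocyte marker passed the threshold in a comparison with a knockdown or mutant label. Macrophage markers summed to 66.9 and 76.0 CPM in LV vehicle pools and 121 and 114 CPM in LV pools labelled Cre-Tat, and to 51.8 and 49.3 against 104 and 75.3 CPM in 4V ChP. Of the 8 markers, 3 rose in LV and 6 in 4V ChP, and none was at 0 in a group. With the Otx2(+/-) label these markers summed to 98.1 and 104 CPM against 95.5 and 94.6 CPM in WT, and *Mrc1* alone rose. Markers listed for ependyma, the ciliated lining of the ventricles, summed to 136 and 148 against 213 and 268 CPM in LV ChP. In 4V ChP they summed to 163 and 130 against 278 and 266 CPM. Of these 5 markers, 4 were tested in each ventricle, and *Foxj1* and *Dynlrb2* rose in both. Whether this rise came from ependyma or from the ChP epithelium was not tested. T cell markers summed to 1.53 and 1.99 against 7.87 and 4.59 CPM in LV and 1.04 and 1.94 against 5.59 and 3.52 CPM in 4V ChP, and of 3 tested *Cd3g* rose in LV and none passed in 4V ChP. Of the 4 astrocyte markers, 2 rose and 1 fell in each ventricle, and *Aqp4* rose with the Otx2(+/-) label. Of the 6 fibroblast markers, *Col1a2* rose and *Pdgfra* fell in each ventricle. With the Otx2(+/-) label these 6 summed to 1107 and 1004 CPM against 798 and 725 CPM in WT, and *Col1a2* and *Col3a1* rose. Of the 10 ChP epithelium markers, 4 fell in LV ChP, 9 in 4V ChP and 3 in the pools labelled Otx2(+/-), and *Otx2* was the 1 that rose in each. The part of these shifts in the changes of the members was not tested, and in bulk tissue fewer cells of a type and less RNA per cell cannot be told apart. Neutrophil markers summed to 16.01 CPM in 4V Cre-Tat pool A and to 5.14 CPM or less in every other pool. What this meant for the members was not tested.

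Among the glutathione peroxidases, *Gpx8* moved against *Gpx3*. The peroxidase of the endoplasmic reticulum was at 188 and 133 CPM in the 4V vehicle pools and 117 and 106 CPM in the 4V pools labelled Cre-Tat. In the constitutive model, WT pools held 190.3 and 189 CPM and the pools labelled Otx2(+/-) 126 and 120.4 CPM. The groups did not overlap in either comparison. *Gpx8* fell in both, in 4V ChP with the Cre-Tat label (log2 fold change -0.52, SE 0.16, edgeR adjusted p = 0.042) and with the Otx2(+/-) label (log2 fold change -0.62, SE 0.11, edgeR adjusted p = 0.020). The first of these calls was lost without 4V vehicle pool A (-0.24, edgeR adjusted p = 0.68), without 4V Cre-Tat pool B (-0.44, edgeR adjusted p = 0.069), and with scaling to total counts (-0.37). At an almost equal log2 fold change it was also lost by DESeq2 (-0.52, adjusted p = 0.051), with sums over transcripts (-0.52, edgeR adjusted p = 0.095) and with all groups of the run in 1 fit (-0.53, edgeR adjusted p = 0.099). In LV ChP, the values were 245 and 235 CPM under vehicle and 159 and 212 CPM in the pools labelled Cre-Tat (log2 fold change -0.37, SE 0.17, edgeR adjusted p = 0.361). In the pools labelled Otx2(+/AA), *Gpx8* had 146 and 151 CPM (log2 fold change -0.36, SE 0.12, edgeR adjusted p = 0.322). All pools with a knockdown or mutant label were thus below their controls, with the change past the threshold in 2 of the 4 comparisons.

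The other peroxidases did not pass the threshold. *Gpx1*, the main cytosolic enzyme, was at 75.1 and 78.7 CPM in LV and 59.7 and 62.1 CPM in 4V vehicle pools, and at 64.9 and 89.8 CPM and 67.3 and 57.0 CPM in the pools labelled Cre-Tat. It was at 85.7 and 82.8 CPM in WT, 74.4 and 96.7 CPM in the pools labelled Otx2(+/-) and 79.6 and 115 CPM in those labelled Otx2(+/AA). Pools of *Gpx1* overlapped between treatments in each ventricle. *Gpx7*, a peroxidase of the endoplasmic reticulum like *Gpx8*, had a log2 fold change of -0.67 in 4V ChP with the Cre-Tat label (edgeR adjusted p = 0.138). *Gpx4*, which protects membranes from lipid peroxidation, lay between 3.18 and 7.89 CPM in all pools, but 68.9% of the 50-base windows of its transcript also occur in pseudogenes, so its level is uncertain.

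Enzymes of glutathione synthesis and recycling stayed within the threshold in all comparisons with a knockdown or mutant label. *Gclm* came nearest. It was at 29.1 and 36.3 CPM in LV vehicle pools and 56.4 and 41.3 CPM in LV pools labelled Cre-Tat, at 37.3 and 54.6 and 59.0 and 66.2 CPM in 4V ChP, and at 37.4 and 38.9 CPM in WT and 53.5 and 50.3 CPM in the pools labelled Otx2(+/-). Its pools did not overlap in these comparisons and were higher with the knockdown label. The log2 fold changes were 0.58 in LV (edgeR adjusted p = 0.128), 0.46 in 4V ChP (edgeR adjusted p = 0.084) and 0.45 with the Otx2(+/-) label (edgeR adjusted p = 0.075). The 4V change of *Gclm* passed the threshold without 4V Cre-Tat pool A (0.53, edgeR adjusted p = 0.017) or without 4V vehicle pool B (0.75, edgeR adjusted p = 0.0081), and was smaller without 4V vehicle pool A (0.21, edgeR adjusted p = 0.72) or 4V Cre-Tat pool B (0.38, edgeR adjusted p = 0.14). *Gclc*, the catalytic subunit of the same ligase, had log2 fold changes of -0.02, 0.01 and -0.03 there, and its pools overlapped in each. *Gss* and *Gsr*, glutathione synthetase and reductase, ranged from -0.16 to 0.21 over the same comparisons, with no call.

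Of the 23 glutathione S-transferases, 16 were tested in 4V ChP with the Cre-Tat label and 2 of them rose, which is 12.5% beside the 10.7% of all genes called there. None of the 16 or 17 tested passed in the other comparisons with a knockdown or mutant label. *Gstt1*, of the theta class, was at 22.1 and 15.4 CPM in 4V vehicle pools and 34.3 and 28.3 CPM in 4V pools labelled Cre-Tat. *Gstm1*, of the mu class, was at 6.07 and 3.97 CPM and 10.5 and 9.37 CPM there. Vehicle and Cre-Tat pools were apart for both. *Gstt1* rose 1.66-fold (log2 fold change 0.73, SE 0.18, edgeR adjusted p = 0.013) and *Gstm1* 1.96-fold (log2 fold change 0.97, SE 0.23, edgeR adjusted p = 0.011). Each of these calls was lost without 4V vehicle pool B, with a log2 fold change of 0.50 for *Gstt1* (edgeR adjusted p = 0.16) and 0.71 for *Gstm1* (edgeR adjusted p = 0.093), and with sums over transcripts (edgeR adjusted p = 0.054 for each). Other genes, among them *Gstm3*, share 23.2% of the 50-base windows of *Gstm1*. In LV ChP, *Gstt1* had 29.1 and 31.9 CPM under vehicle and 33.7 and 45.6 CPM with the Cre-Tat label, and *Gstm1* 7.26 and 9.20 and 7.63 and 11.0 CPM, without passing the threshold. *Gsta4*, 1 of the 3 members with the highest levels per length under vehicle, was at 225 and 227 and 225 and 272 CPM in LV vehicle and Cre-Tat pools and at 245 and 186 and 254 and 213 CPM in 4V ChP, with overlapping pools. In the constitutive model it had 322 and 311 CPM in WT, 276 and 307 CPM in the pools labelled Otx2(+/-) and 359 and 391.6 CPM in those labelled Otx2(+/AA).

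In the pools labelled Otx2(+/-), transferases had a median log2 fold change of -0.16 over the 17 tested. The nearest to the threshold were *Gsta3* and *Gstm5*. *Gsta3*, of the alpha class, was at 2.19 and 2.02 CPM in WT and 0.706 and 0.719 CPM with the Otx2(+/-) label (log2 fold change -1.55, SE 0.36, edgeR adjusted p = 0.058). *Gstm5* was at 64.8 and 59.5 CPM and 43.6 and 45.6 CPM (log2 fold change -0.48, SE 0.11, edgeR adjusted p = 0.060). WT pools were above the mutant pools for both. With the Cre-Tat label in 4V ChP, *Gstm5* was at 59.8 and 54.0 CPM under vehicle and 80.5 and 57.7 CPM, and these pools overlapped (log2 fold change 0.28, SE 0.16, edgeR adjusted p = 0.318). In LV ChP it was at 72.5 and 77.5 CPM under vehicle and 82.2 and 105 CPM.

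In the thioredoxin group, *Txnip* was the member that changed. It encodes a protein that binds reduced thioredoxin and blocks it, and that lowers glucose uptake. In LV ChP, *Txnip* was at 92.5 and 118 CPM under vehicle and 198 and 163 CPM with the Cre-Tat label. In 4V ChP, it was at 99.4 and 109.98 and 145 and 156 CPM. Cre-Tat pools were above vehicle pools in both ventricles. *Txnip* rose 1.72-fold in LV (log2 fold change 0.79, SE 0.18, edgeR adjusted p = 0.026) and 1.44-fold in 4V ChP (log2 fold change 0.53, SE 0.13, edgeR adjusted p = 0.015). The LV call was lost without LV vehicle pool A (0.62, edgeR adjusted p = 0.42), and the 4V call without 4V vehicle pool A (0.47, edgeR adjusted p = 0.22) or pool B (0.59, edgeR adjusted p = 0.060), and with all groups of the run in 1 fit (0.52, edgeR adjusted p = 0.062). In the constitutive model, the values were 142 and 94.0 CPM in WT, 191 and 128 CPM with the Otx2(+/-) label and 107 and 108 CPM with the Otx2(+/AA) label, and the pools overlapped. The gene Gm15441, on the other strand, covers 21.6% of the counted *Txnip* transcript with its exons, so reads of both cannot be told apart without the strand. *Txn1*, cytosolic thioredoxin, was at 16.7 and 17.0 CPM in WT and 11.5 and 11.6 CPM with the Otx2(+/-) label (log2 fold change -0.55, SE 0.15, edgeR adjusted p = 0.087). Mitochondrial *Txn2* and the reductases *Txnrd1*, *Txnrd2* and *Txnrd3* were not called in any comparison.

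Of the 12 thioredoxin-domain and thioredoxin-like genes, *Txndc2* and *Txndc8* were tested in no comparison. None of the other 10 passed the threshold in a comparison between groups, where 0.345% to 10.7% of all genes were called. The abundant *Txndc15* was the nearest, at 121 and 92.8 CPM in 4V vehicle pools and 85.5 and 69.5 CPM in 4V pools labelled Cre-Tat (log2 fold change -0.46, SE 0.16, edgeR adjusted p = 0.070). It was at 132 and 124 and 97.5 and 109 CPM in LV ChP, at 125 and 139 CPM in WT, at 107 and 106 CPM with the Otx2(+/-) label and at 108 and 117 CPM with the Otx2(+/AA) label. Control pools were above the others in each of these comparisons, but none passed the threshold, and both mutant labels share the WT pools. Without 4V Cre-Tat pool A the 4V change passed the threshold (-0.63, edgeR adjusted p = 0.0035), as it did without 4V vehicle pool B (-0.64, edgeR adjusted p = 0.022). It was smaller without 4V vehicle pool A (-0.24, edgeR adjusted p = 0.66) or 4V Cre-Tat pool B (-0.31, edgeR adjusted p = 0.27).

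Peroxiredoxins take electrons from thioredoxin or glutathione. In 4V ChP with the Cre-Tat label, 1 of the 8 members of this group passed the threshold, which is 12.5% beside 10.7% of all genes. None passed in the other comparisons with a knockdown or mutant label. *Prdx6*, the member with phospholipase activity that works with glutathione, was at 133 and 136 CPM in 4V vehicle pools and 227 and 209.96 CPM in 4V pools labelled Cre-Tat. In LV ChP, it was at 126 and 140.3 and 168 and 179.8 CPM. WT pools held 134 and 133 CPM, those labelled Otx2(+/-) 144 and 170.03 CPM and those labelled Otx2(+/AA) 132 and 147 CPM. Each knockdown label went with higher pools than its control, without overlap. The rise passed the threshold in 4V ChP, 1.63-fold (log2 fold change 0.71, SE 0.13, edgeR adjusted p = 0.002), and not in LV ChP (log2 fold change 0.39, SE 0.16, edgeR adjusted p = 0.262). In 4V ChP it held without any 1 of the pools. The repair enzyme *Srxn1*, which restores overoxidised peroxiredoxins, was at 21.9 and 15.9 CPM and 27.9 and 25.4 CPM there (log2 fold change 0.49, SE 0.17, edgeR adjusted p = 0.085). *Prdx5* was at 279 and 285 and 296 and 339 CPM in LV and at 254.5 and 216 and 268 and 209 CPM in 4V vehicle and Cre-Tat pools. *Prdx5* had 321 and 305 CPM in WT, 250.1 and 262 CPM with the Otx2(+/-) label and 326 and 337 CPM with the Otx2(+/AA) label, and none of its changes passed the threshold. *Prdx2* lay between 48.3 and 91.1 CPM in all pools, with no call.

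Superoxide dismutases make hydrogen peroxide from superoxide in separate compartments. *Sod1* was at 28.5 and 28.3 CPM in WT and 18.5 and 18.8 CPM with the Otx2(+/-) label. It was at 34.6 and 31.5 and 24.6 and 28.8 CPM in LV and 31.7 and 24.3 and 23.9 and 22.0 CPM in 4V vehicle and Cre-Tat pools, and at 23.9 and 26.8 CPM with the Otx2(+/AA) label. In each comparison the pools with the knockdown or mutant label were lower. *Sod1* fell with the Otx2(+/-) label (log2 fold change -0.60, SE 0.13, edgeR adjusted p = 0.041), but this call was lost when any 1 of the 4 pools was left out (edgeR adjusted p = 0.052 to 0.11), at a log2 fold change of -0.62 to -0.59. It was also lost with total counts, without the filter and with sums over transcripts (edgeR adjusted p = 0.069, 0.057 and 0.085). A pseudogene, Gm8566, shares 23.1% of the 50-base windows of *Sod1*. Mitochondrial *Sod2* was at 163 and 157 CPM in 4V vehicle and 202 and 186 CPM in 4V Cre-Tat pools (log2 fold change 0.28, SE 0.13, edgeR adjusted p = 0.218). *Sod3* was at 133 and 123 and 116 and 172 CPM in LV and 277 and 217 and 246 and 356 CPM in 4V vehicle and Cre-Tat pools. In the constitutive model *Sod3* was at 359 and 286 CPM in WT, 284 and 316 CPM with the Otx2(+/-) label and 273 and 276 CPM with the Otx2(+/AA) label. No treatment or genotype comparison called *Sod3*.

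Of the glutaredoxins, *Glrx*, which removes glutathione from proteins, passed the threshold and the other 3 did not. It passed in 4V ChP with the Cre-Tat label, where 10.7% of all genes did. *Glrx* was at 1.70 and 1.57 CPM in 4V vehicle pools and 4.94 and 5.29 CPM in 4V pools labelled Cre-Tat. In LV ChP, it was at 3.10 and 2.83 and 4.98 and 4.31 CPM. WT pools held 1.93 and 1.91 CPM, those labelled Otx2(+/-) 3.03 and 3.80 CPM and those labelled Otx2(+/AA) 1.87 and 2.40 CPM. Pools with a knockdown label were higher than their controls without overlap. *Glrx* rose 3.11-fold in 4V ChP (log2 fold change 1.64, SE 0.30, edgeR adjusted p = 0.002), and its changes in LV ChP (log2 fold change 0.65, SE 0.27, edgeR adjusted p = 0.277) and with the Otx2(+/-) label (log2 fold change 0.83, SE 0.28, edgeR adjusted p = 0.157) did not pass the threshold. The 4V change was 2.99-fold to 3.29-fold when single pools were left out.

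**Figure D4:**
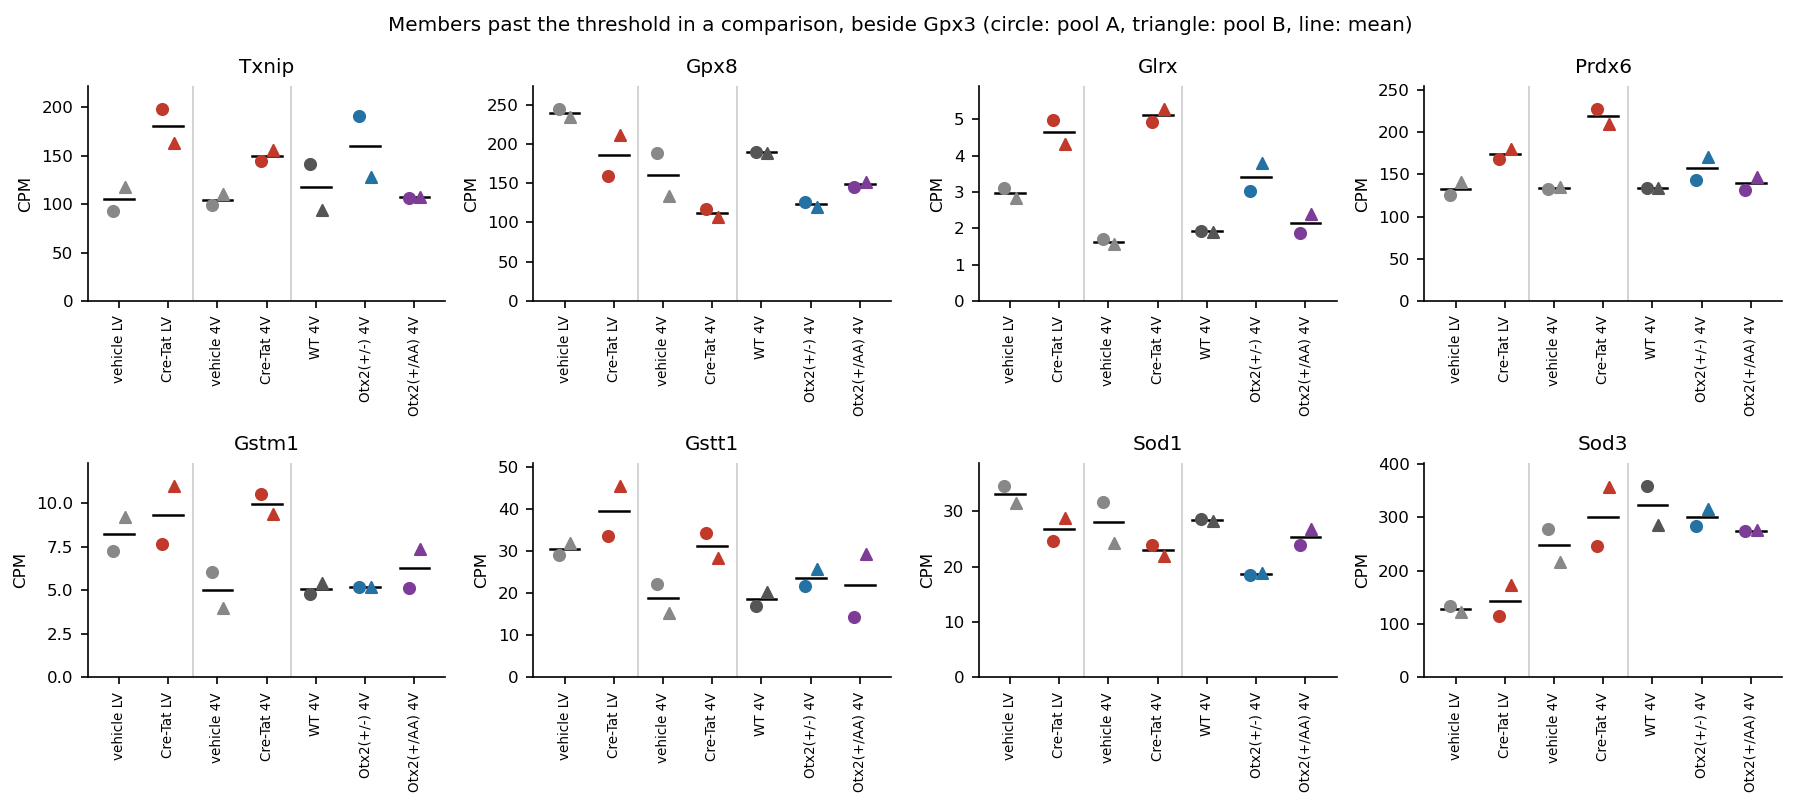
Levels in CPM in each pool for the 8 members other than *Gpx3* that passed the threshold in a comparison, with circles for pool A, triangles for pool B and lines for the mean of 2 pools. *Txnip*, *Prdx6* and *Glrx* are higher in pools labelled Cre-Tat than in vehicle pools of the same ventricle, *Gpx8* and *Sod1* are lower, and *Sod3* differs by ventricle.

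Between ventricles under vehicle, 2 of 57 members were higher in LV than in 4V ChP and 1 was lower, against 7.44% of all genes tested, 3.46% higher and 3.98% lower. Pools of the ventricles did not overlap for 28 members, as for 53.7% of all genes. *Sod3* was lower in LV ChP, at 133 and 123 CPM against 277 and 217 CPM, a ratio of 0.517 (log2 fold change -0.95, SE 0.14, edgeR adjusted p = 0.00099). *Gstt1* was higher in LV ChP, with 29.1 and 31.9 CPM against 22.1 and 15.4 CPM (log2 fold change 0.69, SE 0.17, edgeR adjusted p = 0.026). *Gpx8* was also higher there, with 245 and 235 CPM against 188 and 133 CPM (log2 fold change 0.57, SE 0.15, edgeR adjusted p = 0.038). The calls of *Gstt1* and *Gpx8* were lost without 4V vehicle pool B, at log2 fold changes of 0.46 and 0.34, with scaling to total counts, with sums over transcripts and with all groups of the run in 1 fit, whereas *Sod3* remained past the threshold without any 1 pool. Without LV vehicle pool A, 7 members passed, and without 4V vehicle pool B 1. *Gpx3* was not called between ventricles (log2 fold change 0.16), and it was called higher in LV ChP without LV vehicle pool A (0.75, edgeR adjusted p = 0.0036) and lower without LV vehicle pool B (-0.85, edgeR adjusted p = 0.012).

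Other genes of the same pathways moved in both directions. Of the 28 tested genes of glutathione transport, breakdown and conjugation outside the members, 2 rose (*Ggt5* and *Slc25a39*) and 4 fell (*Ggt7*, *Slc1a1*, *Cth* and *Abcc1*) in 4V ChP with the Cre-Tat label, where 5.7% of all genes rose and 4.98% fell. *Ltc4s* was the 1 of 29 that fell with the Otx2(+/-) label, against 1.75% of all genes. In LV ChP none of 31 passed by edgeR or DESeq2, with 7 at an unadjusted p under 0.05. Between ventricles, 6 of 29 were higher in LV ChP and none lower, against 3.46% and 3.98% of all genes, among them *Slc7a11*, the cystine carrier that feeds glutathione synthesis. Of the genes of the NRF2 programme, *Nfe2l2*, which encodes NRF2, *G6pdx* and *Fth1* rose and *Nqo1*, *Me1* and *Idh1* fell in 4V ChP, out of 32 tested, against the same 10.7% of all genes called. In LV ChP 1 of 31 fell, and with the Otx2(+/-) label also 1 of 31, against 1.03% and 1.75% of all genes. *Idh1*, a source of NADPH, was at 193 and 219 CPM under vehicle and 137 and 115 CPM with the Cre-Tat label in LV, and at 136 and 126 and 78.4 and 70.9 CPM in 4V ChP. It fell in both (log2 fold change -0.71, SE 0.17, edgeR adjusted p = 0.032 in LV, and log2 fold change -0.80, SE 0.13, edgeR adjusted p = 0.000632 in 4V ChP). *Nqo1*, a quinone reductase, was at 75.7 and 72.6 and 52.1 and 49.4 CPM in 4V vehicle and Cre-Tat pools, and at 73.0 and 75.3 CPM in WT and 46.9 and 43.5 CPM with the Otx2(+/-) label. Pools were apart, and *Nqo1* fell in both comparisons (log2 fold change -0.54, SE 0.13, edgeR adjusted p = 0.012 and log2 fold change -0.71, SE 0.11, edgeR adjusted p = 0.011).

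Among other genes of peroxide and selenium metabolism, 4 of 46 rose and none fell in LV ChP with the Cre-Tat label, against 3.24% of all genes called. In 4V ChP 5 of 46 rose and 2 fell, against 10.7%, and with the Otx2(+/-) label 1 of 45 rose and 2 fell, against 3.53%. With the Otx2(+/AA) label, no gene of these 3 lists passed by edgeR, with 7, 2 and 6 genes at an unadjusted p under 0.05 and 0, 0 and 2 called by DESeq2. *Cybb*, the phagocyte oxidase subunit that makes superoxide, was at 9.88 and 14.4 and 30.1 and 19.3 CPM in LV and 7.55 and 10.6 and 21.5 and 18.8 CPM in 4V vehicle and Cre-Tat pools. It rose in both (log2 fold change 1.03, SE 0.23, edgeR adjusted p = 0.026 in LV, and log2 fold change 1.17, SE 0.19, edgeR adjusted p = 0.000557 in 4V ChP). Whether this rise was linked to the higher macrophage markers of these pools was not tested. *Ucp2*, a mitochondrial carrier, was at 97.0 and 105 and 164 and 184 CPM in LV and 94.3 and 97.0 and 175 and 212 CPM in 4V ChP, and rose in both (log2 fold change 0.79, SE 0.16, edgeR adjusted p = 0.015 in LV, and log2 fold change 1.02, SE 0.14, edgeR adjusted p = 9.3e-05 in 4V ChP). The oxidases *Acox2* and *Ddo*, which release hydrogen peroxide, rose in 2 comparisons each. *Acox2* was at 2.58 and 2.73 and 8.59 and 9.26 CPM in LV and 2.07 and 2.95 and 12.6 and 11.0 CPM in 4V ChP. *Ddo* rose in LV ChP, from 38.9 and 40.7 CPM to 79.2 and 67.4 CPM, and with the Otx2(+/-) label, from 42.4 and 41.8 CPM to 84.8 and 80.8 CPM. Both oxidases had pools apart in these comparisons, and *Ddo* was at 72.3 and 63.2 and 83.1 and 80.0 CPM in 4V ChP, without a call.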

How the data were processed

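RNA from pooled mouse ChP was sequenced as 50-base reads after ribosomal depletion with a strand-specific kit according to the labels, whereas the study describes PolyA+ selection. The authors deposited raw counts of reads per Ensembl transcript, without normalization, and the submitters' processing notes name Bowtie 0.12.9, HTSeq 0.5.3, SAMtools, DESeq 1.8.3 and bcl2fastq 1.8.4 with mm10. The strand and the treatment of multiple matches in counting are not given in the sources used here, so reads of overlapping genes or close copies can be included. In the conditional model, 14 of 16 files carry another library number in their name than the sample that holds them. Files were joined to pools by the number in their name. Files with the same number differed by no more than sampling noise (chi-square 1.005 to 1.036 times its degrees of freedom for 8 pairs), whereas pairs as attached reached 22.8 to 40.8 times, and both runs of a pool were summed. Of 95533 transcripts, 82807 matched GENCODE vM21 and held 89.46% of counts, and a gene's most counted transcript stood for it.

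Genes were tested on these counts with edgeR 4.0.16 in R 4.3.3 (filterByExpr, TMM, quasi-likelihood test, Benjamini-Hochberg adjustment over all genes tested, threshold 0.05), with only the pools compared in each fit. SE values are the absolute log2 fold change divided by the square root of the F statistic. With 2 pools against 2, the smallest p of an exact permutation test is 0.333. The procedure was also run on simulated counts, in which the spread between pools followed the level of a gene. Its outcome is not given here. Alternatives were DESeq2 1.42.0, its size factors, scaling to total counts, tests without a filter or above a mean count of 10, a block for the pool letter, sums over transcripts, files as attached, 1 fit for all groups of a run and each pool left out. For the fits of all groups, a run means the libraries of the same year. Values were given for *Gpx3*, members called in 2 or more comparisons or in an interaction, the 10 highest per length under vehicle, and those called in 1 comparison. The members next to the threshold, and *Gclc*, *Gss*, *Gsr*, *Gpx4*, *Gpx7* and *Sod2*, were chosen after their values were seen. The members and gene lists were chosen with earlier results of these data known. Python 3.11.15, pandas 2.3.3 and NumPy 2.4.6 were used for the tables.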

Additional observations from a re-analysis of the deposited data

Results flagged for a closer look

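The change of *Gpx3* in 4V ChP differed between the conditional and the constitutive model, by 3.40 on the log2 scale (SE 0.31, edgeR adjusted p = 0.000206 for the interaction term). All 4 pools with a knockdown label were above their controls, at 572 and 847 CPM against 9.85 and 14.2 CPM in the conditional and 157 and 185 CPM against 35.1 and 26.3 CPM in the constitutive model. The difference was 3.11 to 3.68 when single pools were left out, and it passed the threshold in each of these fits.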

How the results depend on the processing

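*Gpx3* kept its direction and its call under every alternative except the files as attached in LV and 4V ChP, and under every alternative run in the pools labelled Otx2(+/-). With files as attached, both pools of a group are runs of the same mixture of libraries, and 23, 36 and 28 members passed in LV ChP, in 4V ChP and between ventricles, with *Gpx3* at -1.17, -1.34 and -0.72. Then *Gclm* (-0.67), *Glrx* (-0.14), *Gpx8* (0.95), *Prdx6* (-0.19) and *Txndc15* (0.59) also reversed in 4V ChP. Between ventricles *Gpx3* reversed with total counts (-0.047) and without 4V vehicle pool A (-0.08) or LV vehicle pool B (-0.85), from a value that was not called. It passed in opposite directions without LV vehicle pool B (edgeR adjusted p = 0.0120) and without LV vehicle pool A (0.75, edgeR adjusted p = 0.00356).

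Pools of the same letter share only a letter, with deviations correlated at -0.14 in LV ChP, 0.16 in 4V ChP, 0.35 for Otx2(+/-), 0.08 for Otx2(+/AA) and 0.09 between ventricles. With the letter as a block, 16 members passed in 4V ChP, 13 for Otx2(+/-), 1 for Otx2(+/AA), 7 between ventricles and 3 in the interaction of label and model, and 2 in LV ChP, where crossed letters, an alternative added after seeing the data, gave 3. Without the filter on low counts, 6 passed between ventricles, 1 in the interaction of treatment and ventricle and 2 in that of label and model. With sums over transcripts, 4 passed in 4V ChP and 1 between ventricles, and with all groups of a run in 1 fit also 1 between ventricles. Leaving out single pools gave 1 to 4 members in LV ChP, 6 to 12 in 4V ChP, 2 to 3 for Otx2(+/-), 0 for Otx2(+/AA), 1 to 7 between ventricles, 0 in the first interaction and 1 to 2 in the second. With 1 pool left in a group, that pool is assumed to vary like the others.

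The counts of all genes called, and so the shares of all genes given beside the members, moved by more than 1.5 times under some settings. In LV ChP 486 genes became 874 without a filter, 737 without Cre-Tat pool B and 321 without vehicle pool A. In 4V ChP 1554 became 3114 with the block and 905 without vehicle pool A. For Otx2(+/-) 515 became 2539 with the block, and 832, 791 and 881 without Otx2(+/-) pool B, WT pool A and WT pool B. For Otx2(+/AA) 50 became 122 by DESeq2, 390 without a filter, 549 with the block, 22 with sums over transcripts, 18 with all groups in 1 fit, and 105, 149 and 382 without Otx2(+/AA) pool B, WT pool A and WT pool B. Between ventricles 1083 became 1840 without a filter, 2288 with the block, 717 with all groups in 1 fit, and 631, 400 and 1968 without 4V vehicle pool A, 4V vehicle pool B and LV vehicle pool A. In the interaction of label and model 252 became 627 without a filter, 1048 with the block, 166 with sums over transcripts and 80 to 246 without single pools, and in that of treatment and ventricle 1 became 31 without a filter and 0 to 5 elsewhere. With files as attached, 6709, 8742 and 4718 genes were called in LV ChP, in 4V ChP and between ventricles. Total counts moved the median of all genes by 0.17 in LV ChP. The cause of these shifts was not tested. At this depth 10 members could be tested in no comparison.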

Other observations

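The genes whose pattern was most like that of *Gpx3* were found by Pearson's correlation of log2 CPM, with 0.5 CPM added, over the 14 pools after each pool was set against its control group. Of 13743 genes tested in each comparison with a knockdown or mutant label, the first were *Sned1* (0.981), *Hopx* (0.980), *Lrrc75b* (0.980), *Spats2l* (0.979) and *Fmod* (0.978). Among the members, *Prdx6* was the nearest to *Gpx3* (0.950), followed by *Glrx* (0.896). These values are a description with no test, since the pools share treatments, library years and controls, and pools labelled Cre-Tat stand apart from the others.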
